A study of Sus scrofa with 27 samples.

Results

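The arachidonic acid pathway was examined through 10 porcine genes: the cyclooxygenases PTGS1 and PTGS2, the terminal synthases PTGES, PTGIS and TBXAS1, the receptors PTGER2, PTGER4 and PTGIR, the inactivating enzyme HPGD, and ALOX5AP, which serves the leukotriene branch. They were taken by symbol from a count table of 31908 genes, and those under 10 counts in every library were to be dropped. All 10 were present once and none was dropped, since the lowest count of any of them in any library was 52 (PTGER2). The lungs came from Large-White pigs in a non-heart-beating donor model, and each lung stayed cold for a time before ex vivo lung perfusion (EVLP), in which the explanted lung is ventilated and perfused outside the body. Both groups received Steen solution containing the steroid methylprednisolone, the antibiotic cefuroxime and heparin. In the Gold Standard (GS) group of 5 pigs (9, 17, 44, 55 and 77), part of the perfusate was regularly replaced. In the Pediatric Dialysis (PD) group of 4 pigs (2, 3, 4 and 5), the circuit was dialysed continuously through a pediatric membrane instead. A biopsy taken just before perfusion (0h) and biopsies at 6h and 12h gave 27 RNA-seq libraries, 3 per pig. No group of lungs was left without perfusion over the same hours, so changes from 0h hold everything that differed between the biopsies, ventilation, steroid and repeated sampling included. No age or sex of the pigs is used here.

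Cyclooxygenases turn arachidonic acid, once freed from membrane lipids, into prostaglandin H, from which terminal synthases make the individual prostanoids. PTGS1 is known as the constitutive enzyme and PTGS2 as the one induced by cytokines and other stimuli, PTGES makes prostaglandin E, PTGIS makes prostacyclin and TBXAS1 makes thromboxane A. Prostacyclin widens pulmonary vessels and holds back platelets through the receptor encoded by PTGIR, thromboxane does the reverse, and prostaglandin E acts through PTGER2 and PTGER4 among others. The lung is known for removing prostaglandins from the circulation, and HPGD catalyses the first step of their breakdown.

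The sequences immediately before PTGS2 and PTGER4 are shown because these genes had the most similar courses of any pair among the 10 across the libraries, as described further on. Each is the stretch of 250 bases that ends just before the first transcribed base in RefSeq (Sscrofa11.1), read on the strand of the gene. Capitals mark exact matches, on either strand, to the TATA box with the letters TATAAA, the CCAAT box, the GC box GGGCGG, the short cAMP response element TGACG, the E-box CACGTG and the C/EBP motif TTGCNNAA.
PTGS2, chr9:127858867-127859116, minus strand: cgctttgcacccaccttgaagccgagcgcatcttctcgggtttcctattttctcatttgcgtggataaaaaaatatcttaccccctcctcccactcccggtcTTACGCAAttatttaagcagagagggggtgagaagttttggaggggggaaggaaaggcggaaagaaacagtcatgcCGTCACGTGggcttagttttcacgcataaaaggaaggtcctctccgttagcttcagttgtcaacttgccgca
PTGER4, chr16:25670582-25670831, plus strand: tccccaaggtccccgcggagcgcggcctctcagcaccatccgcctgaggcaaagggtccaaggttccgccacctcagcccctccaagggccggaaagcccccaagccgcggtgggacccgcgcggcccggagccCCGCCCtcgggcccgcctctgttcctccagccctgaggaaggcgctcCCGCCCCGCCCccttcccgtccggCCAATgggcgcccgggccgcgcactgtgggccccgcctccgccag
The PTGS2 stretch held a C/EBP match 148 bases before the first base, and an E-box 69 bases before it that overlapped a short cAMP response element at 72. Among 19559 pig promoters of the same length, 8.08% held the C/EBP letters, 6.36% the E-box and 19.8% the short cAMP response element. The PTGER4 stretch held none of these, but 3 GC boxes, a motif found in 46.4% of promoters, and a CCAAT box 45 bases before the first base, found in 31.6%. Letters of the NF-kB type (GGG, any 5 bases, CC) were searched too and are not capitalised: PTGER4 had 3 matches and PTGS2 none, and 59.7% of promoters had at least 1. The 2 stretches therefore shared none of the 7 motifs searched. These are matches of letters only, and a missing match says only that the letters are not in this window. No HPGD promoter is printed, since the starts in Ensembl and in the RefSeq transcript lie 463 bases apart.

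Total counts per library ran from 26335584 to 67522703 in the GS group and from 14650700 to 21820935 in the PD group, without overlap, so depth and group cannot be told apart. Within GS, every library of pigs 9 and 17 held 26335584 to 41802541 counts and every library of pigs 44, 55 and 77 held 51708598 to 67522703, and results that rest on this split are given for both sets. The PD pig 2 library of 12h stood apart: its median correlation with its group was 0.832 against 0.878 to 0.969 elsewhere, and mitochondrial genes took 1.65% of its counts against 2.41% to 11.6% elsewhere. Results that rest on this library are given with and without it. All 5 alveolar epithelial markers (such as SFTPC and AGER) were detected in both groups, with summed levels of 7057 to 9819 CPM (a count set against its library total, scaled by TMM) in GS and 26471 to 77247 CPM in PD at 0h. SFTPC carried most of the PD sum (median 34440 CPM against 3520 CPM in GS), while SFTPB was lower in PD (435 against 1350 CPM) and AGER similar (703 against 797 CPM). A gene is called changed where edgeR gave an adjusted p under 0.05, over all genes tested, and a fold change of at least 2. SE denotes the standard error of a log2 fold change (log2 FC). As the tissue was bulk lung, a change in the number of cells of a type and a change in RNA per cell cannot be told apart.

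Levels of the 10 genes before perfusion spanned over an order of magnitude when set per kilobase of RefSeq exon. In GS lungs at 0h, PTGS1 had the highest mean at 32.1 ± 5.56 CPM per kilobase (SD, n = 5), followed by PTGES at 21.8 ± 8.52, PTGS2 at 21.5 ± 6.28 and HPGD at 15.5 ± 3.29. Next came TBXAS1 at 10.3 ± 4.02 and PTGER4 at 5.73 ± 1.14 CPM per kilobase, and then PTGIS at 3.79 ± 1.05, ALOX5AP at 3.13 ± 1.26, PTGIR at 2.45 ± 0.312 and PTGER2 at 1.69 ± 0.299. Every gene overlapped its neighbour in this order within 1 SD, other than PTGIR and PTGER2, so the order of neighbours is not resolved. By their means the synthetic enzymes other than PTGIS lay above the 3 receptors. In PD lungs at 0h, PTGES led at 58.8 ± 9.40 CPM per kilobase (n = 4), beside PTGS1 at 53.8 ± 8.75. PTGIR at 1.73 ± 0.645 and PTGER2 at 1.75 ± 0.374 were lowest there, and their order is not resolved. These levels use the exon lengths of all RefSeq transcripts together, and the Ensembl model of PTGER2 that was counted starts 38654 bases upstream of the RefSeq one. RefSeq models also reach past the Ensembl ones for ALOX5AP (start at 7371328 against 7411644) and HPGD (end at 15773534 against 15763710). Their lengths may thus hold exons that were not counted, which would make their levels per kilobase too low.

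PTGS2, the inducible cyclooxygenase, moved up in some GS pigs and not in others, and in the PD group it was higher in every pig at 6h. At 0h the GS pigs 9, 17, 44, 55 and 77 had 112, 82.2, 60.3, 79.5 and 54.0 CPM. At 6h the same pigs had 66.5, 73.3, 228, 170 and 204 CPM, and at 12h 89.9, 62.1, 254, 272 and 238 CPM. Pigs 44, 55 and 77 were thus above their own 0h level by a wide margin at both times, while pigs 9 and 17 were below theirs. Over the 5 pigs PTGS2 was not called, with a log2 FC of 0.66 (SE 0.39, edgeR adjusted p = 0.217) at 6h and 0.91 (SE 0.39, adjusted p = 0.0794) at 12h. In a fit of pigs 44, 55 and 77 alone, an alternative chosen after seeing the data, PTGS2 was called higher at 6h (log2 FC 1.66, edgeR adjusted p = 0.00026) and at 12h (log2 FC 1.99, adjusted p = 7.7e-05). Pigs 9 and 17 alone gave -0.43 and -0.37, neither called, and the difference between the 2 sets was not tested. Since the sets were formed after these courses were seen, calls within them (PTGIR and PTGER4 included) describe the split without testing it.

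PD lungs all carried more PTGS2 at 6h than at 0h. Pigs 2, 3, 4 and 5 went from 97.6, 51.4, 48.7 and 30.7 CPM at 0h to 387, 199, 182 and 234 CPM at 6h, and the ranges did not overlap. At 12h they held 75.1, 133, 82.8 and 262 CPM, so that pig 2 lay below its 0h level while pig 5 stayed high. The log2 FC was 2.11 at 6h (SE 0.48, edgeR unadjusted p = 0.0011, adjusted p = 0.133) and 1.27 at 12h (SE 0.49, adjusted p = 0.142), neither of them called. Without the PD pig 2 library of 12h, PTGS2 was called at 6h (log2 FC 2.12, adjusted p = 0.0093) and at 12h (log2 FC 1.70, adjusted p = 0.0104). Without pig 5 the value at 12h was 0.64 (edgeR adjusted p = 0.649). The number of genes called in the whole table moved with that library too, from 22 to 252 at 6h and from 930 to 4161 at 12h when it was left out. The change to 6h in PD exceeded that in GS by 1.44 on the log2 scale (SE 0.64, unadjusted p = 0.0350), which did not pass adjustment over all genes (edgeR adjusted p = 0.783). That difference was 0.47 against GS pigs 44, 55 and 77 alone and 2.54 against pigs 9 and 17 alone, neither past the adjusted threshold.

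**Figure D1:**
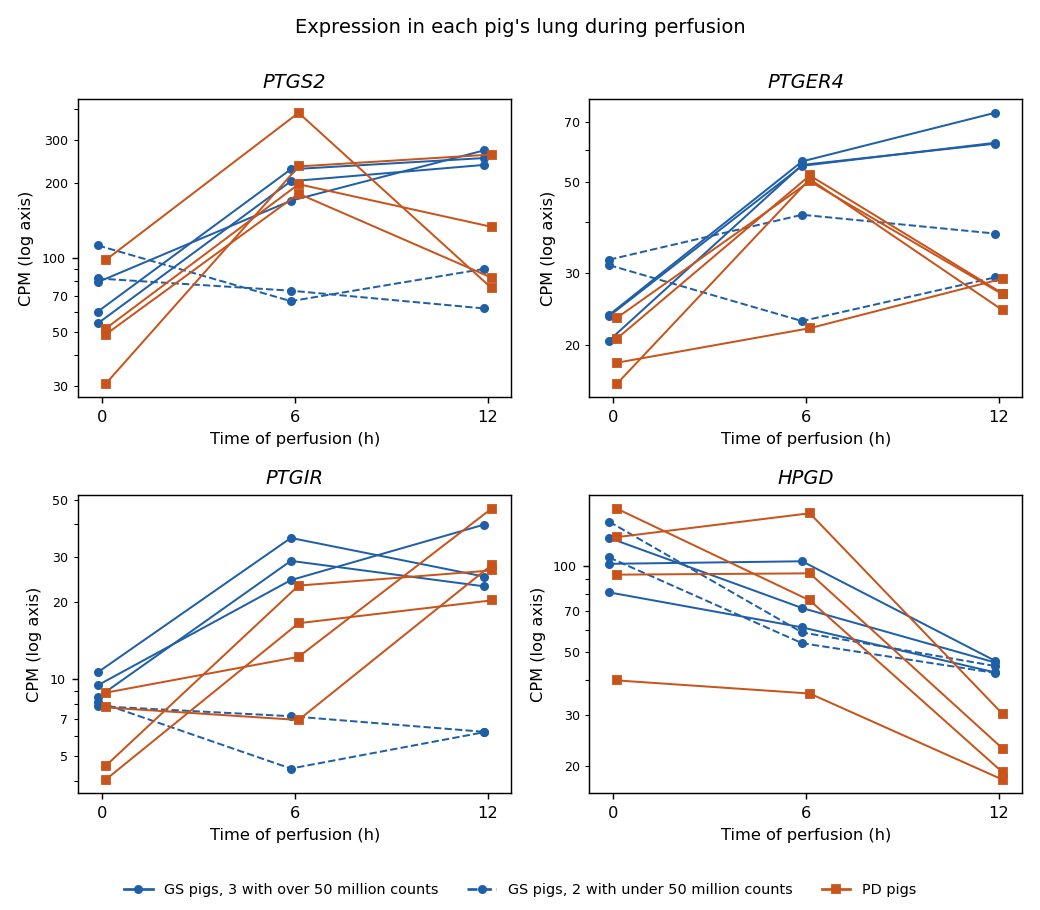
PTGS2, PTGER4, PTGIR and HPGD in each pig, as CPM on a log axis against time of perfusion in hours. Each line is 1 pig: GS pigs 44, 55 and 77 (blue, the more deeply sequenced), GS pigs 9 and 17 (blue, broken) and the 4 PD pigs (orange squares). The broken lines stay flat or low for PTGS2 and PTGIR while the other GS lines climb, and every line ends lower than it began for HPGD.

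PTGS1, the constitutive cyclooxygenase, was not called during perfusion in either group. GS pigs ranged from 73.0 to 109 CPM at 0h, from 53.9 to 123 CPM at 6h and from 61.7 to 114 CPM at 12h, with log2 FC of -0.06 (SE 0.15) and -0.05 (SE 0.15). In PD lungs PTGS1 stood at 152, 111, 166 and 143 CPM at 0h, and at 128, 110, 78.7 and 74.3 CPM at 6h. All 4 PD pigs were thus lower at 6h, by 1.01 to 2.11 times, and the log2 FC of -0.60 (SE 0.37, edgeR adjusted p = 0.622) was below 0 in all 12 alternatives but was not called. At 12h pig 2 reached 333 CPM against 103 to 114 CPM in the other 3 pigs. The PD log2 FC at 12h was 0.03 (SE 0.37) with that library and -0.32 (SE 0.31) without it, neither called by edgeR. The sign of its change at 12h thus turned on 1 library.

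Of the terminal synthases, PTGES had the largest positive log2 FC, short of a call in both groups. In GS lungs the prostaglandin E synthase lay at 16.4, 22.4, 18.4, 41.0 and 29.7 CPM at 0h in pigs 9, 17, 44, 55 and 77, and at 18.1, 56.0, 36.0, 40.0 and 57.3 CPM at 12h. Pigs 17, 44 and 77 were clearly above their 0h level, while pigs 9 and 55 stayed near it. The log2 FC at 12h was 0.62 (SE 0.24, edgeR adjusted p = 0.0519), and at 6h it was 0.19 (SE 0.24). PD lungs went from 57.4, 63.3, 73.1 and 82.4 CPM at 0h to 61.3, 66.7, 156 and 91.5 CPM at 6h and 229, 95.5, 192 and 106 CPM at 12h. All 4 PD pigs were higher at 12h than at 0h, by 1.28 to 3.99 times, and the ranges did not overlap. The log2 FC of 1.11 at 12h (SE 0.38, edgeR adjusted p = 0.0997) was not called. PTGES was called there by DESeq2 (log2 FC 1.16, adjusted p = 0.0248) and by edgeR in 1 fit of all libraries (1.11, adjusted p = 0.0176). Without the PD pig 2 library of 12h its log2 FC was 0.70 (edgeR adjusted p = 0.0977).

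The prostacyclin synthase PTGIS and the thromboxane synthase TBXAS1 were called at neither time in either group. PTGIS ranged in GS lungs from 12.2 to 26.7 CPM at 0h, from 9.76 to 34.0 at 6h and from 12.9 to 25.0 at 12h. In PD lungs it stood at 30.6, 52.0, 33.1 and 49.0 CPM at 0h and at 40.4, 18.6, 12.9 and 24.1 CPM at 12h, lower than at 0h in 3 of 4 pigs. The log2 FC in PD at 12h was -0.88 (SE 0.47, edgeR adjusted p = 0.280). Without the PD pig 2 library of 12h it became -1.21 with an adjusted p of 0.04996 in edgeR, a call at the threshold. TBXAS1 ranged in GS lungs from 18.2 to 41.3 CPM at 0h and from 16.2 to 27.4 CPM at 12h, and in PD lungs from 12.5 to 20.8 CPM and from 12.5 to 30.3 CPM. Its log2 FC stayed between -0.23 and 0.19 in the 4 comparisons with 0h.

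**Figure D2:**
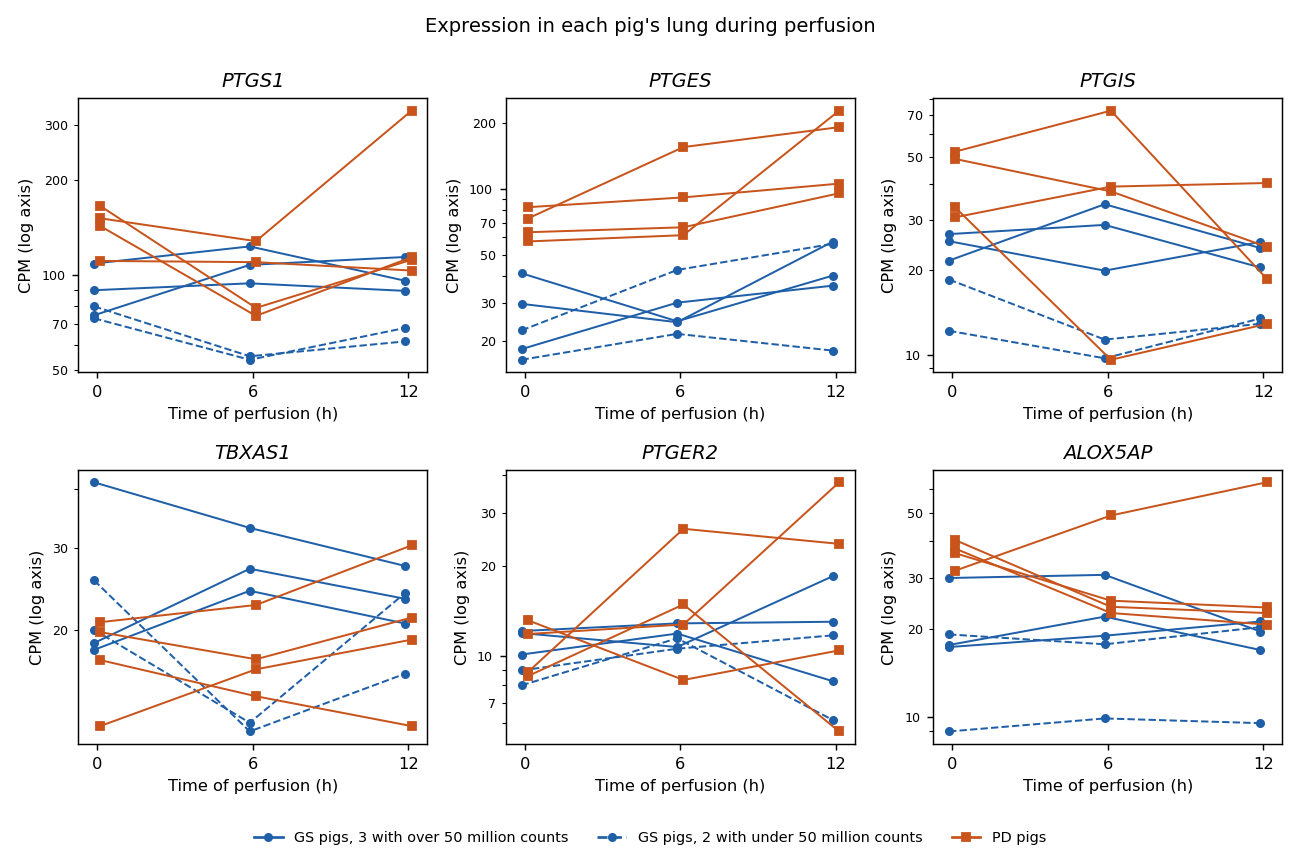
The other 6 genes in each pig, as CPM on a log axis against time of perfusion in hours, with the same lines and colours as in the plot of PTGS2, PTGER4, PTGIR and HPGD. PTGES lies higher in every PD pig than in any GS pig at 0h, and PD pig 2 leaves the other PD pigs at 12h for PTGS1 (333 CPM) and ALOX5AP (63.5 CPM).

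PTGIR, the prostacyclin receptor, rose in PD lungs over 12h. The 4 pigs had 8.85, 4.06, 4.59 and 7.76 CPM at 0h, 12.2, 16.5, 23.1 and 6.93 CPM at 6h, and 46.1, 20.2, 26.5 and 27.8 CPM at 12h. Every PD pig was 3.58 to 5.77 times higher at 12h than at 0h, while at 6h pig 5 was slightly under its 0h level. At 12h the log2 FC was 2.23 (SE 0.45, edgeR adjusted p = 0.0247), and at 6h 1.24 (SE 0.46, adjusted p = 0.425). The call at 12h held without the PD pig 2 library of 12h (log2 FC 2.02, edgeR adjusted p = 0.0095). It was lost without pig 3 (edgeR adjusted p = 0.192), without pig 4 (0.0529), without pig 5 (0.254) and when only the 0h and 12h libraries were fitted (0.106), where the log2 FC stayed between 2.18 and 2.40. Smooth muscle markers, which mark cells known to carry this receptor, had summed levels of 515 to 2090 CPM at 0h and 978 to 3775 CPM at 12h in PD lungs. None of the 5 was called at 12h, and all 5 were detected in every library. Between 0h and 12h their PD medians fell for ACTA2 (689 to 365 CPM), MYH11 (389 to 223 CPM) and CNN1 (63.5 to 34.6 CPM). Those of TAGLN (449 to 592 CPM) and DES (193 to 268 CPM) went up. The sum was higher at 12h than at 0h in pigs 2 and 4 and lower in pigs 3 and 5, whereas PTGIR was higher in all 4. Their part in the PTGIR result was not tested.

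In GS lungs PTGIR split along the same line as PTGS2. Pigs 9 and 17 had 7.85 and 8.15 CPM at 0h, 7.17 and 4.48 at 6h, and 6.23 and 6.21 at 12h. Pigs 44, 55 and 77 had 8.49, 9.46 and 10.6 CPM at 0h, 28.8, 24.3 and 35.4 at 6h, and 23.0, 39.9 and 25.1 at 12h. The 5 pigs were within a narrow range before perfusion and fell into separate ranges afterwards. Over all of them the log2 FC was 0.71 at both 6h (SE 0.38, edgeR adjusted p = 0.169) and 12h (SE 0.37, adjusted p = 0.150). Pigs 44, 55 and 77 alone gave 1.64 at 6h (adjusted p = 0.00097) and 1.62 at 12h (adjusted p = 0.00077), both called, and pigs 9 and 17 alone gave -0.48 and -0.38, neither called. The summed smooth muscle markers went from 2529 to 1416 CPM in pig 9 and from 1482 to 697 CPM in pig 17 between 0h and 6h. In pigs 44, 55 and 77 they went from 2104, 2065 and 2124 CPM to 2973, 2362 and 2957 CPM. This sum therefore moved with PTGIR and PTGS2 across the GS pigs at 6h, but its members did not all move alike. The GS median of MYH11 went from 905 CPM at 0h down to 738 CPM at 6h. Those of ACTA2 (493 to 609 CPM), TAGLN (411 to 677 CPM), CNN1 (106 to 125 CPM) and DES (167 to 219 CPM) went up. At 12h the sum was still below its 0h value in pigs 9 and 17 (1365 and 952 CPM) and above it in pig 77 (2587 CPM). It was 1997 CPM in pig 44, under the 0h value, and 2167 CPM in pig 55, close to it, while PTGIR stood at 2.71 and 4.22 times the 0h level in these pigs and PTGS2 went from 60.3 to 254 CPM and from 79.5 to 272 CPM. The part of these cells in either result was not tested.

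PTGER4, a prostaglandin E receptor that signals through cAMP, came close to a call in GS lungs. The GS pigs 9, 17, 44, 55 and 77 had 31.3, 32.3, 23.5, 20.5 and 23.7 CPM at 0h, and 29.2, 37.4, 62.4, 62.1 and 73.9 CPM at 12h. Again pigs 44, 55 and 77 stood far above their 0h level, pig 17 was slightly above it and pig 9 was not. The log2 FC was 0.70 at 6h (SE 0.26, edgeR adjusted p = 0.0557) and 0.88 at 12h (SE 0.26, adjusted p = 0.0169), the latter short of a fold change of 2. It was 1.31 at 6h and 1.55 at 12h in pigs 44, 55 and 77 alone (edgeR adjusted p = 0.00020 and 6.2e-05, both called), and -0.02 and 0.03 in pigs 9 and 17 alone. PD lungs had 23.3, 20.7, 18.1 and 16.0 CPM at 0h, 50.2, 51.9, 22.0 and 50.8 CPM at 6h, and 26.5, 26.7, 29.0 and 24.3 CPM at 12h. Thus 3 of 4 PD pigs stood at about 50 CPM at 6h, and all 4 were back within a few CPM of each other at 12h. The PD log2 FC was 1.14 at 6h (SE 0.35, edgeR adjusted p = 0.287) and 0.46 at 12h (SE 0.34), neither called.

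PTGER2, the other prostaglandin E receptor that raises cAMP, was called in no comparison. GS lungs ranged from 7.99 to 12.1 CPM at 0h and from 6.12 to 18.5 CPM at 12h (log2 FC 0.09, SE 0.20). PD lungs ranged from 8.58 to 13.2 CPM at 0h and from 5.61 to 37.9 CPM at 12h (log2 FC 0.59, SE 0.51), where pigs 4 and 5 were above their 0h level and pigs 2 and 3 below it. The lowest of these values rests on 52 counts, in PD pig 2. Without the PD pig 2 library of 12h the PD log2 FC at 12h was 0.94 (edgeR adjusted p = 0.131), also not called.

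**Figure D3:**
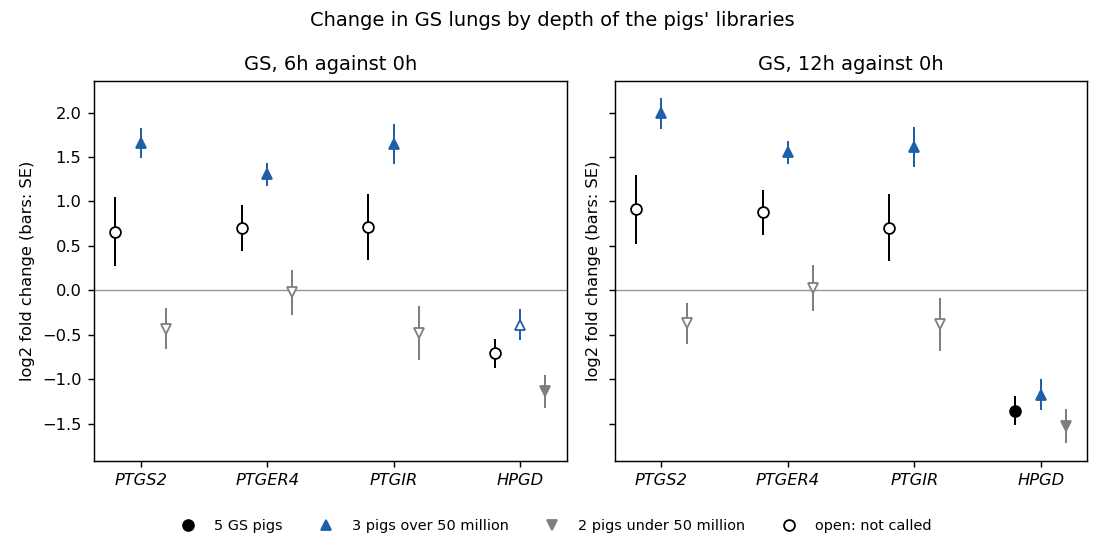
Change of 4 genes in GS lungs from 0h to 6h (left) and to 12h (right), as log2 FC with SE bars, in fits of all 5 GS pigs (black circles), of pigs 44, 55 and 77 (blue upward triangles) and of pigs 9 and 17 (grey downward triangles). Filled symbols were called. PTGS2, PTGER4 and PTGIR lie at 1.31 to 1.99 in the 3 deeper pigs and at -0.48 to 0.03 in the other 2, whereas HPGD lies below 0 in every fit.

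HPGD, the enzyme that begins the breakdown of prostaglandins, fell in both groups by 12h. GS pigs 9, 17, 44, 55 and 77 had 107, 143, 126, 102 and 81.0 CPM at 0h, 53.8, 58.7, 71.4, 104 and 61.1 CPM at 6h, and 42.3, 44.7, 46.0, 46.7 and 42.5 CPM at 12h. All 5 were lower at 12h, by 1.91 to 3.21 times, and they ended within a span of less than 5 CPM. At 12h the log2 FC was -1.36 (SE 0.17, edgeR adjusted p = 0.00015). At 6h it was -0.71 (SE 0.16, adjusted p = 0.0075), past the p threshold and short of a fold change of 2. That value differed between the sets of GS pigs. Pigs 44, 55 and 77 alone gave -0.39 at 6h (edgeR adjusted p = 0.121), and pigs 9 and 17 alone -1.14 (adjusted p = 0.0288, called). The call at 12h was made in pigs 44, 55 and 77 alone (log2 FC -1.17) and in pigs 9 and 17 alone (-1.53), and in all 14 alternatives tried for this comparison.

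PD lungs had 127, 159, 39.8 and 93.5 CPM of HPGD at 0h, and 153, 75.9, 35.8 and 94.5 CPM at 6h. At 12h they had 30.3, 18.9, 17.9 and 22.9 CPM, lower than at 0h in all 4 pigs by 2.23 to 8.41 times. Levels at 6h showed no common course, and those at 12h lay below every value at 0h and 6h. At 12h the log2 FC was -2.09 (SE 0.38, edgeR adjusted p = 0.0182), against -0.25 at 6h (SE 0.36, adjusted p = 0.805). The call at 12h held without the PD pig 2 library of 12h (log2 FC -2.01, edgeR adjusted p = 0.0055). It was lost without pig 3 (log2 FC -1.73, adjusted p = 0.193), without pig 5 (-2.10, adjusted p = 0.254) and when only the 0h and 12h libraries were fitted (-2.08, adjusted p = 0.110). The difference between the groups in the change to 12h was -0.76 on the log2 scale (SE 0.37, unadjusted p = 0.0535, edgeR adjusted p = 0.838). None of the 5 alveolar epithelial markers was called in either group at 12h, and their summed level in GS lungs was 6546 to 15205 CPM at 12h against 7057 to 9819 CPM at 0h. In PD lungs this sum went from 26471 to 22466 CPM in pig 3, from 77247 to 26523 CPM in pig 4 and from 46228 to 17686 CPM in pig 5 between 0h and 12h, and from 38928 to 89648 CPM in pig 2. The lower sums in 3 of 4 PD pigs came mostly from SFTPC, with a median of 34440 CPM at 0h and 16172 CPM at 12h, and the medians of ABCA3 (215 and 84.4 CPM) and SFTPA1 (5944 and 4848 CPM) were lower at 12h too. Those of AGER (703 and 726 CPM) and SFTPB (435 and 419 CPM) were similar at both times. The part of these cells in the HPGD result was not tested.

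ALOX5AP, which presents arachidonic acid to 5-lipoxygenase in leukotriene synthesis, was not called during perfusion. GS lungs ranged from 8.94 to 29.9 CPM at 0h, from 9.90 to 30.6 at 6h and from 9.54 to 21.2 at 12h. PD pigs 3, 4 and 5 lay at 36.3 to 40.3 CPM at 0h and at 20.7 to 23.7 CPM at 12h, while pig 2 went from 31.7 to 63.5 CPM. The log2 FC in PD at 12h was -0.38 (SE 0.38, edgeR adjusted p = 0.580), or -0.64 (adjusted p = 0.165) without the PD pig 2 library of 12h. The gene is known from myeloid cells. The summed markers of neutrophils and monocytes (4 of 6 in the table, all above 0 in every library) were 1520 CPM in PD pig 2 at 12h against 257 to 560 CPM in the other PD pigs. At 6h they were 1125 CPM in pig 2 against 235 to 367 CPM, and ALOX5AP was 48.9 CPM against 22.7 to 25.0 CPM. At 0h the 2 did not run together. The markers summed to 744 CPM in pig 2, 720 CPM in pig 3, 1256 CPM in pig 4 and 623 CPM in pig 5. ALOX5AP was then lowest in pig 2. The part of these cells in the level of ALOX5AP was not tested.

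**Figure D4:**
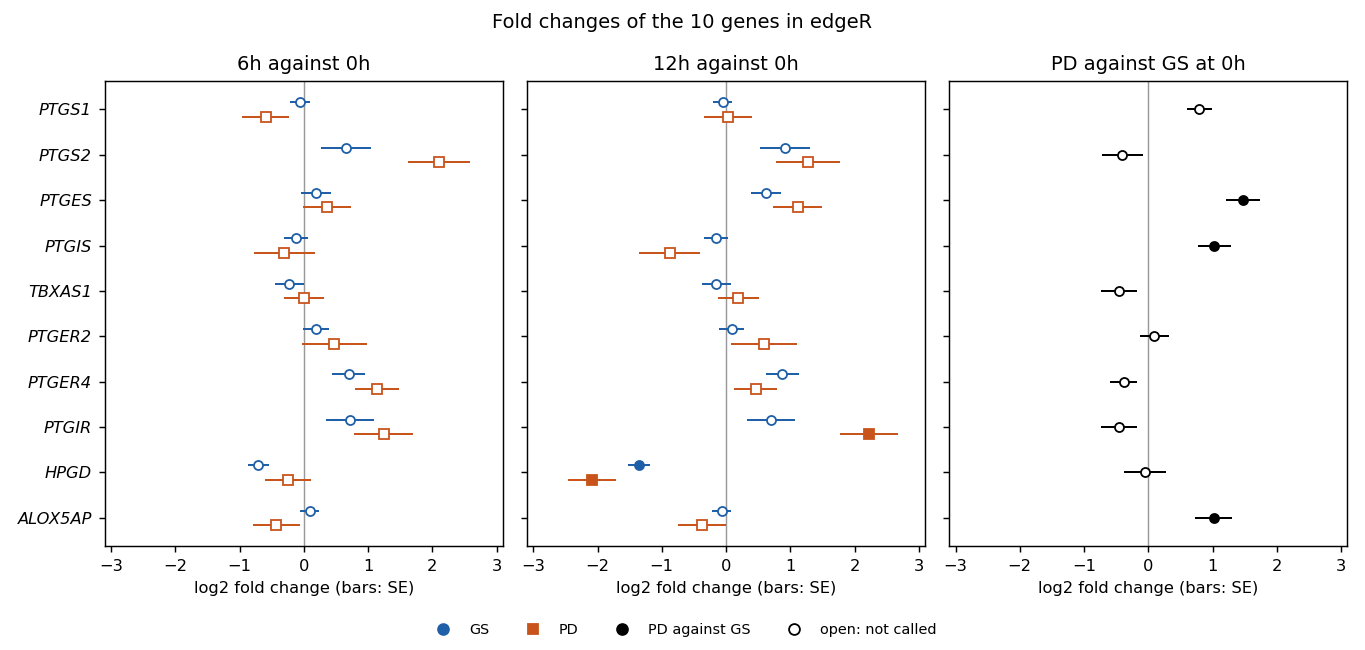
log2 FC of the 10 genes with SE bars in edgeR, at 6h and 12h against 0h in GS (blue circles) and PD (orange squares), and in PD against GS at 0h (black). Filled symbols were called. HPGD is filled in both groups at 12h, PTGIR in PD at 12h, and PTGES, PTGIS and ALOX5AP at 0h.

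Counted over the 10 genes, the calls were few. In GS lungs 0 of 10 were called at 6h, where 11.1% of 18594 genes tested were called and 28.5% passed the p threshold alone (7653 genes were under an unadjusted p of 0.05, and DESeq2 called 0 of the 10 as well), and 1 of 10 (HPGD) at 12h, where 15.7% were. At the p threshold alone, 2 of 10 (HPGD and PTGER4) passed in GS at 12h, against 38.4% of genes. In PD lungs 0 of 10 were called at 6h, against 0.142% of 15545 genes (1463 under an unadjusted p of 0.05), and 2 of 10 (HPGD lower, PTGIR higher) at 12h, against 5.98%. With DESeq2 the PD calls at 6h held 2 members (PTGS2 and PTGER4), out of 428 calls among all 15545 genes. Those at 12h held 4 (the same 2 as edgeR, PTGS2 and PTGES), out of 2560 calls among the same genes. The median log2 FC of the 10 was 0.14 at 6h and 0.02 at 12h in GS, against -0.05 and -0.08 over all genes, and 0.18 and 0.33 in PD, against -0.02 and -0.05.

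Whether dialysis altered these courses was asked with the interaction of group and time. No gene of 17884 was called at either time in edgeR (0%), although 1046 at 6h and 1069 at 12h had an unadjusted p under 0.05, and DESeq2 called 7 and 15. Without PD pig 2 edgeR called 254 and 153 genes. Among the 10, PTGS2 at 6h and PTGIR at 12h had an unadjusted p under 0.05. For PTGIR the change to 12h in PD exceeded that in GS by 1.51 (SE 0.60, unadjusted p = 0.0209, edgeR adjusted p = 0.774). Set against pigs 44, 55 and 77 alone, that difference was 0.65, and against pigs 9 and 17 alone 2.58. For PTGS2 at 12h the same comparison gave -0.68 against the 3 deeper pigs and 1.62 against the other 2, so its direction depended on which GS pigs were used. None of the 10 had changes per pig that did not overlap between the groups, against 3.17% of genes at 6h and 2.23% at 12h.

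Before perfusion the PD lungs already differed from the GS lungs in 3 of the 10 genes, all higher in PD, where 29.1% of 16477 genes were called and 15.2% were called higher. PTGES lay at 57.4 to 82.4 CPM in PD and at 16.4 to 41.0 CPM in GS, without overlap (log2 FC 1.48, SE 0.27, edgeR adjusted p = 0.0010). PTGIS lay at 30.6 to 52.0 CPM against 12.2 to 26.7 CPM (log2 FC 1.03, SE 0.26, adjusted p = 0.0074), and ALOX5AP at 31.7 to 40.3 CPM against 8.94 to 29.9 CPM (log2 FC 1.02, SE 0.28, adjusted p = 0.0128), both also without overlap. PTGS1, which was not called, did not overlap either, at 111 to 166 CPM in PD against 73.0 to 109 CPM in GS. The share of all genes without overlap at 0h was not counted, so the lack of overlap does not set these genes apart. PTGES was called in all 15 alternatives, whereas PTGIS was called in 9 and ALOX5AP in 8, as their fold changes sit at the threshold of 2. PTGS1 was higher in PD by 0.79 on the log2 scale (SE 0.19, edgeR adjusted p = 0.0061), short of a fold change of 2, so that 4 of 10 passed the p threshold alone, against 40.6% of genes, while PTGS2, TBXAS1, HPGD and the 3 receptors did not pass the test. The share of members called was close to that of all genes. At 0h the groups also differed in the summed neutrophil and monocyte markers, at 623 to 1256 CPM in PD and 149 to 434 CPM in GS, of which S100A8 and S100A12 were higher and CSF3R lower in PD. Their part in these differences was not tested, and depth and group cannot be told apart.

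The rest of the pathway was read from a list of 40 gene symbols, of which 34 were in the table and 27 (GS) or 24 (PD) had enough counts for the test. A gene listed under 2 symbols (PTGR3, absent, and ZADH2, present) counts here as 2. In GS lungs 3 were called lower at 6h and 5 at 12h, and 1 was called higher at 12h, against 11.1% and 15.7% of all genes called at these times. CYSLTR1, a receptor for cysteinyl leukotrienes, had a log2 FC of -1.57 at 6h (SE 0.30, edgeR adjusted p = 0.0029). PTGER3, a prostaglandin E receptor that lowers cAMP, had -1.17 at 6h (SE 0.27, adjusted p = 0.0078). At 12h PLA2G4A, the phospholipase that frees arachidonic acid, had -1.09 (SE 0.17, edgeR adjusted p = 0.00048), and HPGDS, a prostaglandin D synthase, had -2.92 (SE 0.49, adjusted p = 0.00083) from a median of only 0.883 CPM at 0h. The gene that rose was SLCO2A1, which encodes the carrier that takes prostaglandins into cells (log2 FC 1.31, SE 0.22, edgeR adjusted p = 0.00085), so that carrier and HPGD moved in opposite directions. HPGDS is known from mast cells. Of the 4 mast cell markers measured, MS4A2 and HDC were called lower in GS at 12h, while KIT (log2 FC 0.11) and GATA2 (-0.19) were not called, and the sum of the 4 was higher than at 0h in pigs 9 and 77. Their part in the HPGDS result was not tested. Of the other markers of cells that could be sampled, those of endothelium (5), macrophages (5) and platelets (3 tested, with GP1BB at 0 in every library) had none called within either group. In PD lungs 0 of the pathway genes were called at 6h and 2 at 12h (against 5.98% of all genes), both lower: LTB4R2, a leukotriene B receptor (log2 FC -2.99, SE 0.67, edgeR adjusted p = 0.0310), and ALOX15, a lipoxygenase (-1.43, SE 0.38, adjusted p = 0.0484). At 0h 6 were higher and 2 lower in PD, where 29.1% of all genes were called, led by MGST2 (log2 FC 3.06) and MGST3 (1.80) on the higher side and PTGDR2 (-1.77) and LTB4R (-1.73) on the lower.

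Across the 27 libraries, after each pig's own mean log2 CPM was taken off, PTGS2 and PTGER4 had the highest Pearson r of any pair of members (0.833), and PTGES and HPGD the lowest (-0.740), followed by HPGD and PTGIR (-0.684). The genes most like PTGS2 were PCF11 (0.900), TRIM36 (0.900) and PDE4B (0.895), the last a phosphodiesterase that breaks down cAMP. Those most like HPGD were CHST9 (0.955), MPPED2 (0.952) and TMEM273 (0.950), and those most like PTGES were TSC22D1 (0.873), BEX4 (0.858) and BTF3 (0.836). These are descriptions over libraries that share pigs, times, depth and scaling, and no test was made of them.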

How the data were processed

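Directional libraries were made with the TruSeq stranded kit from RNA of lung biopsies and sequenced on a NextSeq 500. RNA was extracted by 1 of 2 methods, and which biopsy had which was not given in the sources used here. According to the submitters' notes and the study's methods, reads were trimmed with cutadapt 1.15 and aligned with TopHat2 2.0.14 to Sscrofa11.1 with Ensembl annotation. The notes name featureCounts (Subread 1.6.0) and DESeq2 1.18.1. The strand counted and the treatment of reads with several places are not given in the sources used here, so reads of a gene and of an antisense neighbour may not be told apart. The counts per gene are those the authors deposited, without normalization, and no row lacked a gene.

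In this re-analysis, groups, pigs and times were read from the labels. Genes with low counts were left out by filterByExpr, libraries were scaled by TMM, and edgeR 4.0.16 (R 4.3.3, limma 3.58.1) fitted quasi-likelihood models with robust two-sided F tests and Benjamini-Hochberg adjustment over all genes tested. The 3 libraries of 1 pig came from 1 animal, so pig was a replicate block within groups and in the interaction of group and time. Same-pig libraries deviated together in GS (mean r 0.517, range 0.352 to 0.728) and less in PD (0.116, range -0.215 to 0.420). At 0h the groups were compared without a block, and the interaction was called on the adjusted p alone. No pair of libraries of the same group and time agreed within counting noise, and other pairs were not compared. The procedure was tested on simulated counts.

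All members are named in each comparison. From the 40 pathway symbols, up to 2 of those called with the smallest adjusted p in each direction were named, and for PTGS2, PTGES and HPGD the 3 most similar genes. The members and lists were chosen with earlier results of these data known. Promoters and exon lengths came from RefSeq on Sscrofa11.1. Alternatives were no block, DESeq2 size factors, DESeq2 1.42.0, no filter, no fold threshold, only the time points compared, 1 fit of all libraries, an exact Wilcoxon test of rlog changes per pig, and each pig left out. The sets of GS pigs by depth and the fit without the PD pig 2 library of 12h were added after seeing the data. The result of 1 marker gene is not reported here.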

Additional observations from a re-analysis of the deposited data

Results flagged for a closer look

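Within groups of 4 or 5 libraries, the highest or lowest sample lay apart from the rest by Dixon's criterion in 5 of 60 combinations of gene, group and time, and chance alone flags about 1 in 20. In the PD pig 2 library of 12h, PTGS1 stood at 333 CPM, against 103 to 114 CPM in the other PD pigs, and ALOX5AP at 63.5 CPM, against 20.7 to 23.7 CPM. In the 6h library of the same pig ALOX5AP was already high at 48.9 CPM, against 22.7 to 25.0 CPM. PTGER4 in PD pig 4 at 6h was low at 22.0 CPM, against 50.2 to 51.9 CPM. ALOX5AP in GS pig 9 at 12h was low at 9.54 CPM, against at most 21.2 CPM in the other GS pigs, and this pig was also the lowest of its group at 0h (8.94 CPM) and 6h (9.90 CPM).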

How the results depend on the processing

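The PD results rest on 4 pigs with at most 21820935 counts in a library. As edgeR called 22 genes in all there at 6h, a member that missed the threshold may still differ, and the part of depth in this was not tested. Over the 7 comparisons, 1010 values of the members were recomputed and 55 had another sign than in the main analysis, none of them in a called change. HPGD in GS at 12h and PTGES at 0h were called in each alternative tried. Without the replicate block the members called were the same in number (0, 1, 0, 2, 0 and 0), while the count over all genes in GS moved from 2057 to 1123 at 6h and from 2911 to 1896 at 12h, and in PD from 22 to 100 at 6h and from 930 to 1460 at 12h. Over all genes DESeq2 called 428 and 2560 in PD, 1 fit of all libraries 479 and 3300 in PD and 1219 in GS at 6h, the absence of a filter 103 in PD at 6h, and the fits of only the compared time points 139 and 4 in PD. With pigs left out, the count in GS at 6h went down to 1318, those in PD ran from 0 to 98 at 6h and from 0 to 3826 at 12h, and the interaction calls reached 254 and 153 without PD pig 2. Without a fold threshold 5295 and 7136 were called in GS. The fits of GS pigs 9 and 17 alone called 876 and 1324 genes, and 2273 at 0h.

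Of the members, GS at 6h gave 1 call without a fold threshold, 3 in the more deeply sequenced pigs 44, 55 and 77, 1 in pigs 9 and 17, and 0 to 2 with 1 pig left out. GS at 12h gave 2, 4 in the deeper pigs, and 1 to 4 with 1 pig left out, the additions being PTGS2, PTGER4 and PTGIR without pig 17, and PTGS2 and PTGER4 without pig 9. Over all genes the deeper pigs gave 2760 calls at 6h and 3585 at 12h, of 18919 tested. Pigs 9 and 17 gave 876 at 6h, of 17339. In GS at 12h 2499 of 18810 genes were called without pig 17 and 3533 of 18839 without pig 9. PD at 6h gave 1 call without a filter, with only the 2 time points, in 1 fit of all libraries and without the PD pig 2 library of 12h, and 2 by DESeq2. PD at 12h gave 0 with only the 2 time points, 4 by DESeq2, 4 without that library and 0 to 3 with 1 pig left out, with 0 without pig 3 or pig 5 and 1 without pig 4. Over all genes, the fit without the PD pig 2 library of 12h called 252 at 6h and 4161 at 12h, of 15875 tested. At 0h 1 was called without a filter, 1 against the deeper GS pigs, and 1 to 3 with 1 pig left out, with 1 without GS pig 9 or PD pig 3. Over all genes at 0h, 5235 of 26956 were called without a filter and 4718 of 16030 against the deeper pigs.

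Signs turned as follows, with no call in any, and the cause was not tested. PTGS1 in GS at 6h was 0.0083 without a block, and at 12h 0.00354 with DESeq2 size factors, 0.00936 with only the 2 time points and 0.00365 by DESeq2. Its difference between groups at 12h was -0.0016 without a filter. In the deeper GS pigs the values at 6h were 0.26 (PTGS1), -0.10 (PTGES), 0.16 (PTGIS) and 0.20 (TBXAS1), and at 12h 0.14 (PTGS1). In pigs 9 and 17 they were -0.43 (PTGS2), -0.023 (PTGER4) and -0.48 (PTGIR) at 6h, and -0.37 (PTGS2), -0.38 (PTGIR) and 0.071 (ALOX5AP) at 12h. Against the deeper pigs, the difference in change was -0.18 (TBXAS1), -0.15 (PTGER4) and -0.39 (PTGIR) at 6h and -0.078 (PTGS1) and -0.68 (PTGS2) at 12h, and at 0h 0.030 (HPGD) and -0.084 (PTGER2). Against pigs 9 and 17 it was -0.29 (PTGES) and 0.21 (PTGIS) at 6h and 0.40 (PTGER4) at 12h. Without the PD pig 2 library of 12h, PTGS1 was -0.32 in PD at 12h and its difference -0.27. With 1 pig left out, values ran in GS at 6h from -0.17 to 0.069 (PTGS1) and -0.31 to 0.031 (PTGIS), and at 12h from -0.20 to 0.048 (PTGS1), -0.24 to 0.013 (TBXAS1), -0.061 to 0.24 (PTGER2) and -0.15 to 0.075 (ALOX5AP). In PD they ran at 6h from -0.66 to 0.18 (PTGIS), -0.10 to 0.087 (TBXAS1) and -0.45 to 0.050 (HPGD), and at 12h from -0.38 to 0.28 (PTGS1). The difference in change ran at 6h from -0.10 to 0.33 (PTGES), -0.53 to 0.25 (PTGIS) and -0.10 to 0.68 (PTGER2), and at 12h from -0.32 to 0.28 (PTGS1) and -0.26 to 0.80 (PTGS2). At 0h it ran from -0.33 to 0.22 (HPGD) and -0.028 to 0.19 (PTGER2).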
